A study of Rattus norvegicus with 6 samples.

Results

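The genes described here are those of the nucleus that encode the respiratory chain and the ATP synthase, in primary rat astrocytes with or without β-hydroxybutyrate (BHB), a ketone body made by the liver in fasting. They were chosen by symbol: Nduf genes of the a, b, c, s and v series for complex I, Uqcr genes and Cyc1 for complex III, Cox4 to Cox8 genes for complex IV and Atp5 genes for complex V. The table lists 22608 symbols, of which 81 matched. Of these, 75 had at least 1 FPKM (fragments per kilobase of transcript, scaled to the mapped fragments of the library) in 3 or more of the 6 libraries: 36 of complex I, 9 of complex III, 13 of complex IV and 17 of complex V. The series holds 3 libraries of BHB-treated astrocytes and 3 of untreated Control astrocytes, all of poly(A) RNA from cultured brain cells, and its question is what BHB does to astrocytes. The table's column names put BHB at 2 mM, while no source used here gives treatment time, strain, animal age or medium. Nothing in the labels ties a library to a separate culture or animal, so the p-values cover only the spread between these libraries, which may be technical.

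In the inner mitochondrial membrane, complexes I, III and IV pass electrons from NADH to oxygen and pump protons, and complex V, the ATP synthase, lets the protons flow back to make ATP. Each complex joins subunits encoded in the mitochondrial genome to a larger number encoded in the nucleus. Astrocytes rely strongly on glycolysis and also respire, and BHB is oxidised in mitochondria to acetyl-CoA and NADH, which feed this chain.

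Most astrocyte markers were abundant, beside markers of other cell types. Of 12 astrocyte marker genes all were above the minimum, with Gfap at 1481 to 1563 FPKM in BHB libraries and at 1374 to 1492 FPKM in Control libraries. Slc1a2 was the lowest of them, with means of 6.06 FPKM with BHB and 5.83 FPKM in Control. Slc1a3 differed between the groups, averaging 455.2 FPKM with BHB and 202.7 FPKM in Control (adjusted p = 1.64e-05 in the limma test described below). Among markers of fibroblasts, smooth muscle and mural cells levels were uneven, and 8 of 11 genes reached the minimum. The 11 summed to 4784 to 5164 FPKM with BHB and to 4621 to 4999 FPKM in Control, mostly from Tagln and Acta2. Tagln averaged 3104 FPKM with BHB and 3030 FPKM in Control, and Acta2 1334 and 1285 FPKM. Col1a2 averaged 266.2 and 270.9 FPKM, while Dcn, Lum and Des fell short of the minimum. Microglia markers (10 genes) summed to 49.1 to 51.6 FPKM with BHB and 48.1 to 53.2 FPKM in Control. Of 6 endothelial markers 1 reached the minimum, Eng, with means of 2.44 FPKM with BHB and 2.25 FPKM in Control. Pecam1, Cdh5, Tek and Kdr were above 0 and fell short of it, and Cldn5 was listed at 0 throughout. Neuron markers (10 genes) summed to 91.4 to 94.6 FPKM with BHB and 93.4 to 96.9 FPKM in Control, mostly Stmn2, and oligodendrocyte lineage markers (10 genes) to 95.1 to 99.1 FPKM with BHB and 92.5 to 97.9 FPKM in Control, led by Cnp. In such bulk RNA, more or fewer cells of a type and more or less RNA per cell cannot be told apart. Summed FPKM ran from 361730 to 367448 in BHB libraries and from 354565 to 365566 in Control libraries, and read depth is unknown.

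Respiratory chain and ATP synthase genes were among the more abundant in these cells. The 75 genes together held 1.71% to 1.81% of a library's summed FPKM. Their mean levels over the 6 libraries had a median of 69.3 FPKM, and the median gene stood at the 92.3rd percentile of the 12373 genes tested. Of the 75, 70 averaged at least 10 FPKM. The median level was 48.2 FPKM for complex I, 69.3 FPKM for complex III, 105.8 FPKM for complex IV and 122.0 FPKM for complex V, so the rank of the complexes by median level ran from V down to I.

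**Figure D1:**
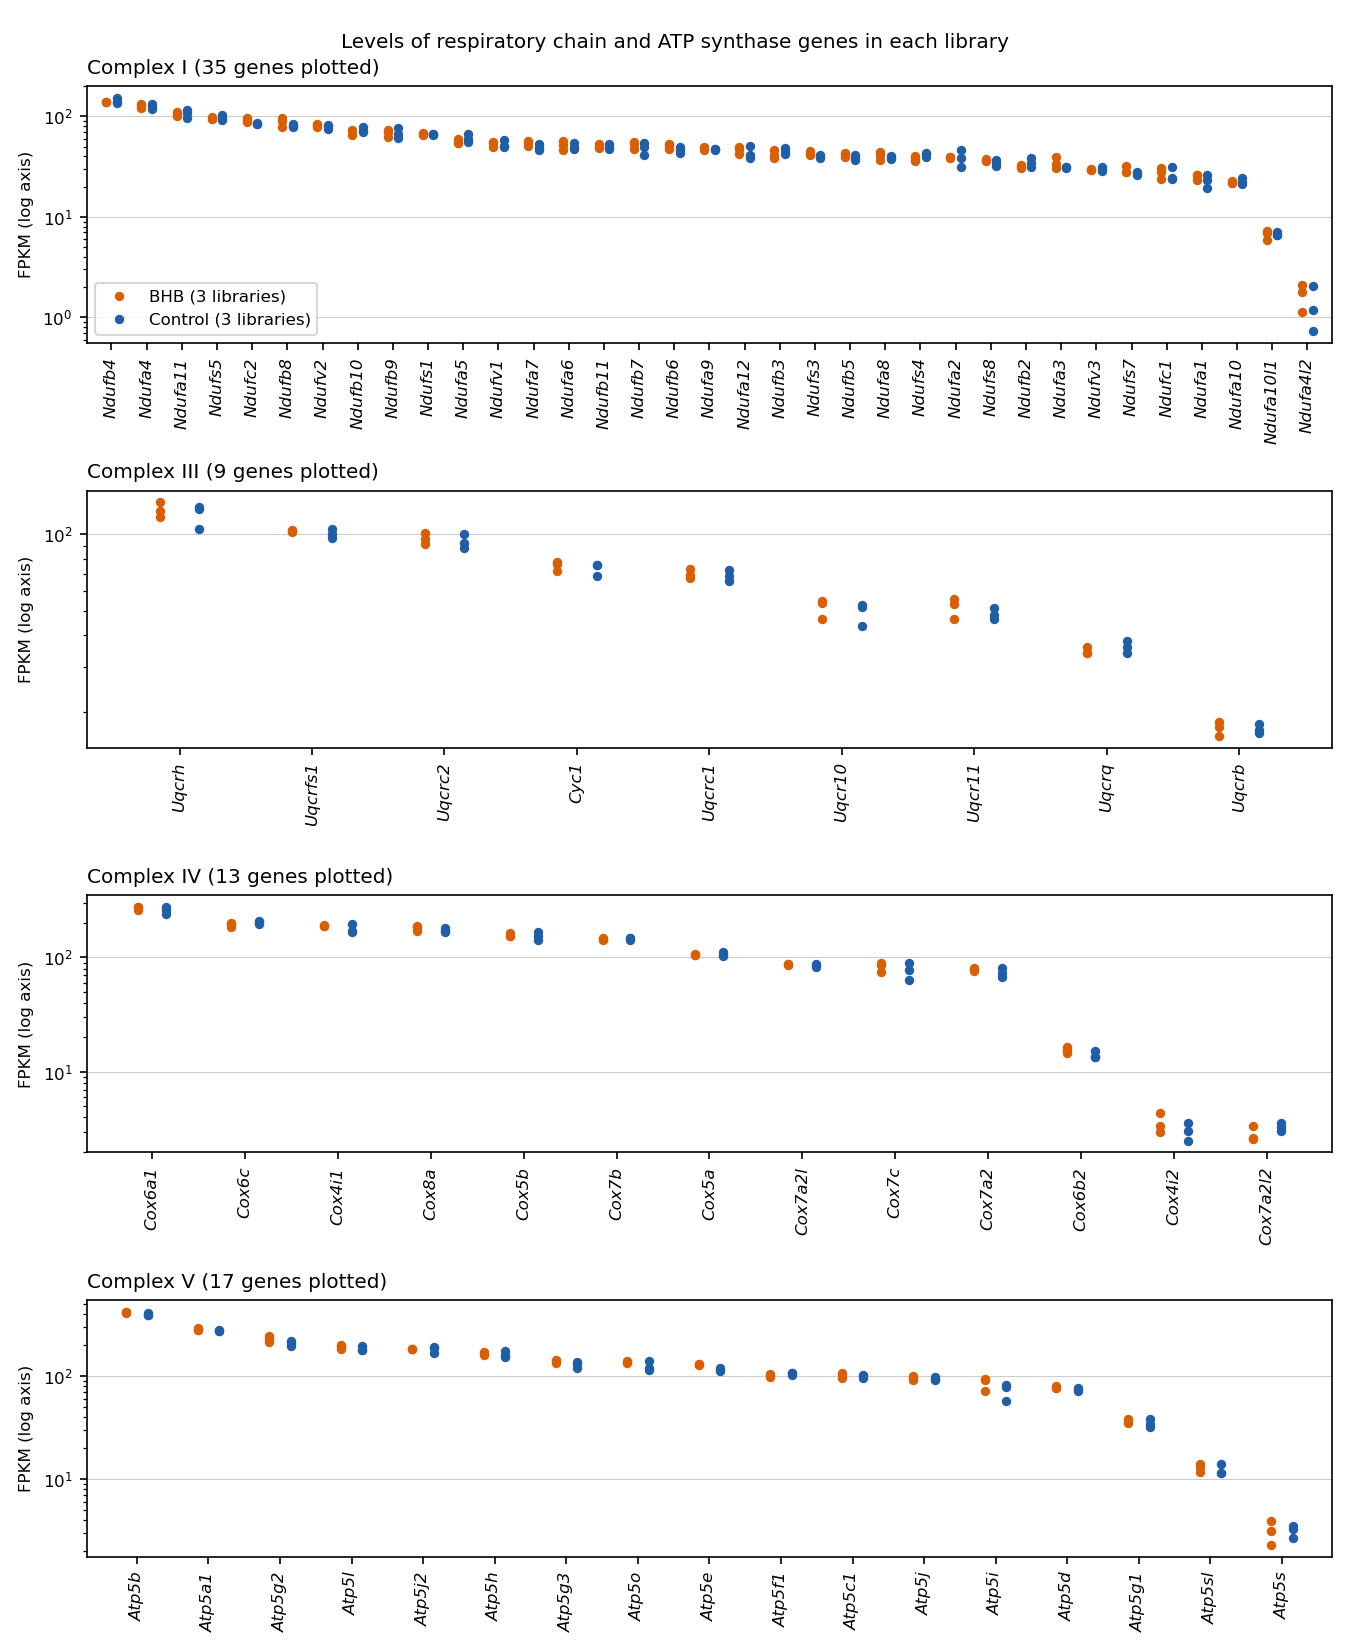
FPKM of each plotted gene (log axis; 35 of complex I, 9 of III, 13 of IV, 17 of V) by complex, ordered by mean level, with a point for each library, BHB to the left of Control. The groups lie on top of each other in nearly all genes, and a few genes at the right of complexes I, IV and V stand far below the rest, down to means of 1.67 FPKM with BHB and 1.33 FPKM in Control for Ndufa4l2.

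The most abundant complex V genes were Atp5b and Atp5a1, of the catalytic head, followed by Atp5g2, of the proton ring. Atp5b, the catalytic beta subunit, had 415.3, 416.7 and 405.1 FPKM in the BHB libraries and 384.3, 408.7 and 388.8 FPKM in the Control libraries. Atp5a1, the alpha subunit, averaged 283.0 ± 9.44 FPKM with BHB and 272.9 ± 3.25 FPKM in Control, and Atp5c1, the gamma subunit of the central stalk, 101.0 ± 5.41 and 98.9 ± 2.70 FPKM (SD, n = 3 each). The lowest gene of the Atp5 pattern, Atp5s at 3.16 FPKM on average, is now named Dmac2l in RefSeq, and Atp5sl, at 12.7 FPKM, is now Dmac2. Neither newer name is that of an ATP synthase subunit, and they are kept here because the symbol pattern takes them.

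Complex I was led by the accessory subunit gene Ndufb4 at 141.3 FPKM on average. Its core redox subunits named here lay on both sides of the complex's median of 48.2 FPKM. Ndufv1, which binds NADH and the flavin, averaged 53.3 ± 3.26 FPKM with BHB and 52.9 ± 5.07 FPKM in Control, and Ndufs1, which carries iron-sulphur clusters, 66.5 ± 1.49 and 66.4 ± 1.10 FPKM (SD, n = 3 each). Ndufs7 and Ndufs8, whose clusters pass electrons on towards ubiquinone, were lower, at 28.3 and 35.7 FPKM over all libraries. Ndufv2, another iron-sulphur subunit, stood at 80.0 FPKM. Ndufs6 matched the pattern and fell short of the minimum, at 0.189, 0 and 0.0976 FPKM with BHB and 0.296, 0.598 and 0 FPKM in Control. RefSeq (assembly GRCr8) gives Ndufs6 also as an older name of a pseudogene, Ndufs6-ps1, and no source used here says which locus the table's row covers.

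In complex III the core proteins stood close together. Uqcrc1 and Uqcrc2, the core proteins of the matrix arm, averaged 69.3 and 94.8 FPKM over the 6 libraries, Uqcrfs1, the Rieske iron-sulphur protein, 101.8 FPKM, and Cyc1, cytochrome c1, 74.3 FPKM. Uqcrh, the hinge protein, was the highest at 122.1 FPKM and Uqcrb the lowest at 17.2 FPKM. RefSeq lists both Uqcrb and Uqcr10 also as older names of pseudogenes. Such copies are common in this family: 35 of the 75 genes had at least 1 pseudogene named after them in GRCr8, 83 in all, and no source used here says how reads shared with them were counted, so these levels are uncertain.

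Complex IV has subunits encoded by a pair or more of isoform genes with tissue-specific use, and for Cox4, Cox6a, Cox7a and Cox8 the widely used isoform held nearly all of the RNA. Cox4i1 averaged 189.4 ± 2.56 FPKM with BHB and 176.3 ± 15.4 FPKM in Control, and Cox4i2, the isoform known from lung and low oxygen, 3.59 ± 0.704 and 3.04 ± 0.529 FPKM (SD, n = 3 each). Cox4i2 thus made up 1.86% ± 0.331 of the pair's FPKM with BHB and 1.72% ± 0.418 in Control (SD, n = 3 each). Cox7a1, the heart and muscle isoform, had 0.314, 0.357 and 0.240 FPKM with BHB and 0.402, 0.372 and 0.307 FPKM in Control, against a mean of 76.6 FPKM for its partner Cox7a2. Cox6a2, another muscle isoform, was listed at 0.128, 0 and 0 FPKM with BHB and at 0, 0.634 and 0.113 FPKM in Control, against 262.9 FPKM on average for Cox6a1, the most abundant complex IV gene. The muscle isoform Cox8b, the testis isoform Cox8c and Cox7b2 were listed at 0 in all 6 libraries, while Cox8a stood at 181.0 ± 8.88 FPKM with BHB and 172.7 ± 7.30 FPKM in Control (SD, n = 3 each).

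The muscle isoforms were low, and so were most striated muscle markers. Of 8 such markers 3 reached the minimum. Actc1 and Acta1 averaged 95.1 and 21.9 FPKM with BHB and 91.2 and 23.3 FPKM in Control, and Tnni3 2.15 and 2.25 FPKM. Myh6, Myh7, Tnnt2, Myog and Ckm fell short of it, and Ckm, the muscle creatine kinase, was at most 0.0854 FPKM in any library. Cox6b2, known mainly from testis, was an exception among these tissue isoforms, at 15.5 ± 0.860 FPKM with BHB and 14.1 ± 1.01 FPKM in Control (SD, n = 3 each). The symbol Cox6b1 is not a row of its own, and the locus with that gene's RefSeq number, LOC688869, stood at 154.4, 182.3 and 167.5 FPKM with BHB and 153.1, 164.9 and 151.6 FPKM in Control. In the same way LOC100911483, which RefSeq now names Ndufa13 of complex I, averaged 89.2 FPKM with BHB and 83.7 FPKM in Control. Both lie outside the symbol rule and enter none of the counts.

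Ndufa4 and its paralogue were as one-sided, while subunit c of complex V drew on several genes. Ndufa4, now placed in complex IV by structural work, averaged 128.0 FPKM with BHB and 126.2 FPKM in Control, and its hypoxia-linked paralogue Ndufa4l2 had 1.14, 1.78 and 2.09 FPKM with BHB and 2.07, 0.730 and 1.17 FPKM in Control. The ring-forming subunit c of the ATP synthase is encoded by 3 genes that yield the same mature protein. Atp5g2 supplied 56.7% ± 1.07 of their summed FPKM with BHB and 55.9% ± 1.65 in Control, Atp5g3 34.3% ± 0.995 and 34.7% ± 1.36, and Atp5g1 9.01% ± 0.138 and 9.41% ± 0.385 (SD, n = 3 each). This division of the subunit among its genes differed between the groups by less than the SD of the Control libraries for Atp5g2 and Atp5g3, and by slightly more for Atp5g1.

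**Figure D2:**
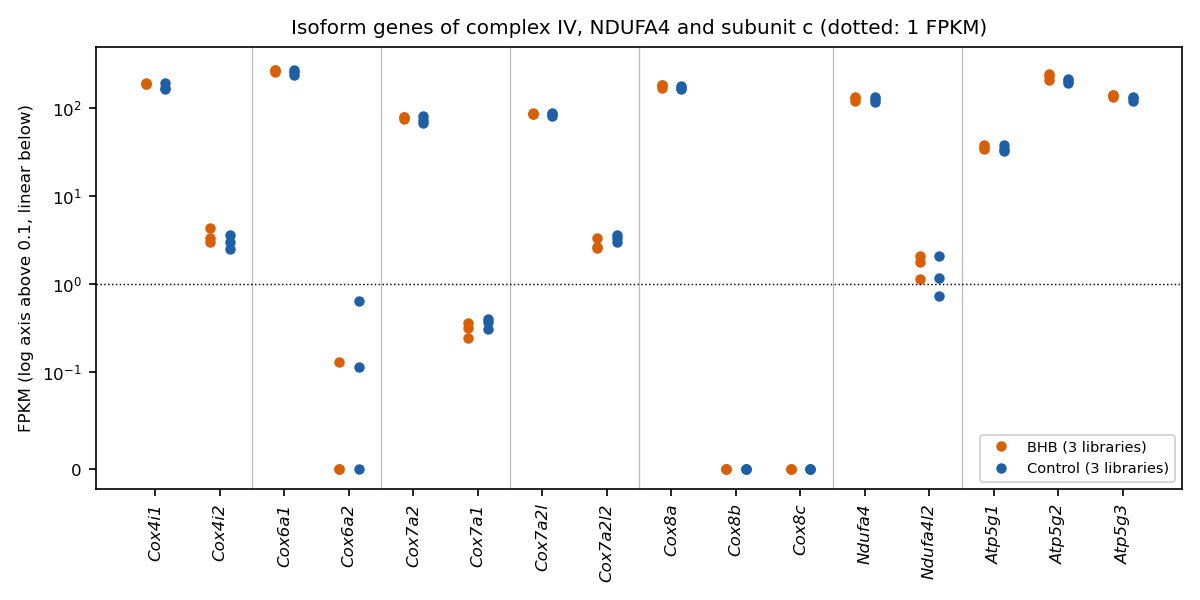
FPKM of isoform genes (log axis above 0.1 FPKM, linear below), a point per library, BHB to the left of Control, with a dotted line at 1 FPKM. Cox6a2, Cox7a1, Cox8b and Cox8c lie below 1 FPKM in every library, while their partners Cox6a1, Cox7a2 and Cox8a average 76.6 to 262.9 FPKM.

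The symbol pairs can be set beside their promoters, which RefSeq gives for GRCr8, a later assembly than the rn6 of the deposited values. Windows of 300 bases (250 before and 50 after the start) were found for 63 of the 75 genes. The motif of NRF1, a factor known to drive many respiratory chain genes, searched on both strands as GCGCA and GCGC with any 1 base between them, lay in 12 of 63 (19.0%), against 10.8% of the 9696 tested genes with a window and 4.82% of all 27457 such genes. The YY1 motif AAGATGGC lay in 14 (22.2%), against 6.01% of tested and 3.62% of all genes. For the GABP motif CCGGAAGT the count was 7 (11.1%), against 8.85% and 4.20%, and for the Sp1 motif GGGGCGGGG it was 5 (7.94%), against 21.6% and 10.9%. No match overlapped one of another motif in these genes, and a pair of NRF1 matches overlapped in Ndufa11. A match is a run of letters and says nothing about binding in these cells.

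The 120 bases just before the start are printed, 5′ to 3′, for an isoform pair that differed fully in level, Cox8a (chr1:213833624-213833743, minus strand) and Cox8b (chr1:205408274-205408393, minus strand), and for 3 complex V genes that share the NRF1 letters and were among the 5 of that complex with the highest log2 fold change. These were Atp5g2 (chr7:135678219-135678338, minus strand), Atp5i (chr14:1464740-1464859, plus strand) and Atp5o (chr11:44657484-44657603, minus strand), picked after their values were seen. The other genes with the NRF1 letters had log2 fold changes on both sides of 0. Above it were Atp5g3 (0.11), Ndufa12 (0.09), Atp5c1 (0.03) and Uqcrc1 (0.02). Below it were Ndufa5 (-0.10), Ndufb4 (-0.03), Ndufv3 (-0.03), Ndufa11 (-0.02) and Ndufs5 (-0.01). Whether the letters go with the difference was not tested. Capitals mark the NRF1 motif in the Atp5 genes and the GABP motif, on the opposite strand, in Cox8a. Cox8b holds none of the 4 motifs in this stretch.
Cox8a: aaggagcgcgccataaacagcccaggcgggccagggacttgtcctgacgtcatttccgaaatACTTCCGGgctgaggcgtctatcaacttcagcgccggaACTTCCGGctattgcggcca
Cox8b: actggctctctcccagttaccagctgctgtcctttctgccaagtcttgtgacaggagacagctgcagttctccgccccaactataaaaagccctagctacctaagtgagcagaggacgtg
Atp5g2: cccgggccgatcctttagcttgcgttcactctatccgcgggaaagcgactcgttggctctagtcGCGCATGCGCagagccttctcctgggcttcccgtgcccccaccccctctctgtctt
Atp5i: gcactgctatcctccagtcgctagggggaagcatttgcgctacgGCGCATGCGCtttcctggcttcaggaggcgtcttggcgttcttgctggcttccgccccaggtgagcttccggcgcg
Atp5o: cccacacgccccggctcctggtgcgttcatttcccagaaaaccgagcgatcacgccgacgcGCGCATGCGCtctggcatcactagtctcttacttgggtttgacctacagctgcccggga
The GABP letters of Cox8a began 58 and 20 bases before the start, and the NRF1 letters began 56 bases before it in Atp5g2, 76 in Atp5i and 59 in Atp5o.

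No respiratory chain or ATP synthase gene changed with BHB by the test used. The effect was fitted with limma on log2(FPKM + 1) over all 12373 genes at or above the minimum, with Benjamini-Hochberg adjustment, and 7 genes (0.0566%) passed an adjusted p of 0.05, none of them among the 75. Adjusted p ran from 0.881 to 0.997 over the 75 genes in limma. An unadjusted p under 0.05 was reached by 3 of the 75 in the higher direction and by 0 in the lower, against 3.45% of all genes tested higher, 2.14% lower and 5.59% in either direction. Without Control 2 that number was 10 of the 75, against 5.63% of all genes tested, and without BHB 3 it was 9 of the 75, against 4.97%. All BHB libraries lay above all Control libraries in 4 genes (5.33%) and below them in 0, against 6.43% and 4.45% of all genes tested and 10.9% in either direction. With all 6 libraries, the shares of the 75 genes are near or under those over all genes.

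The estimated differences between these libraries were also small. Like the p-values, the 95% intervals cover only the spread between these libraries, and each is for a single gene. The 95% interval lay within a 1.5-fold change in either direction for 74 of the 75 genes and within a 1.2-fold change for 52, on the log2(FPKM + 1) scale. The exception to the wider bound was Ndufa4l2, the least abundant gene, with an estimate of 0.22 on the log2 scale and an interval of -0.27 to 0.72. Without Control 2 its estimate was 0.03, without BHB 3 0.11, without BHB 1 0.38 and without Control 1 0.45. Ratios of mean FPKM, BHB over Control, ran from 0.867 for Cox7a2l2 to 1.26 for Ndufa4l2. On this scale changes in genes of few FPKM are understated.

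Most of the small differences pointed up. Of the 75 genes 57 (76.0%) had a log2 fold change above 0, against 51.5% of all genes tested, and the median was 0.04, against 0.00 over all genes. By complex, the counts above 0 were 25 of 36 for complex I, 8 of 9 for complex III, 9 of 13 for complex IV and 15 of 17 for complex V, with median log2 fold changes of 0.03, 0.04, 0.06 and 0.07. The counts are a description with no test: members of a complex share their libraries and are not independent. Without Control 1 or without Control 3 the count was 48, and without Control 2 it was 62. The median over the 75 was 0.02 without Control 1, 0.03 without Control 3 and 0.07 without BHB 3. Without Control 1 the medians of complexes I and III were both 0.01, and without Control 3 that of complex IV was 0.01.

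**Figure D3:**
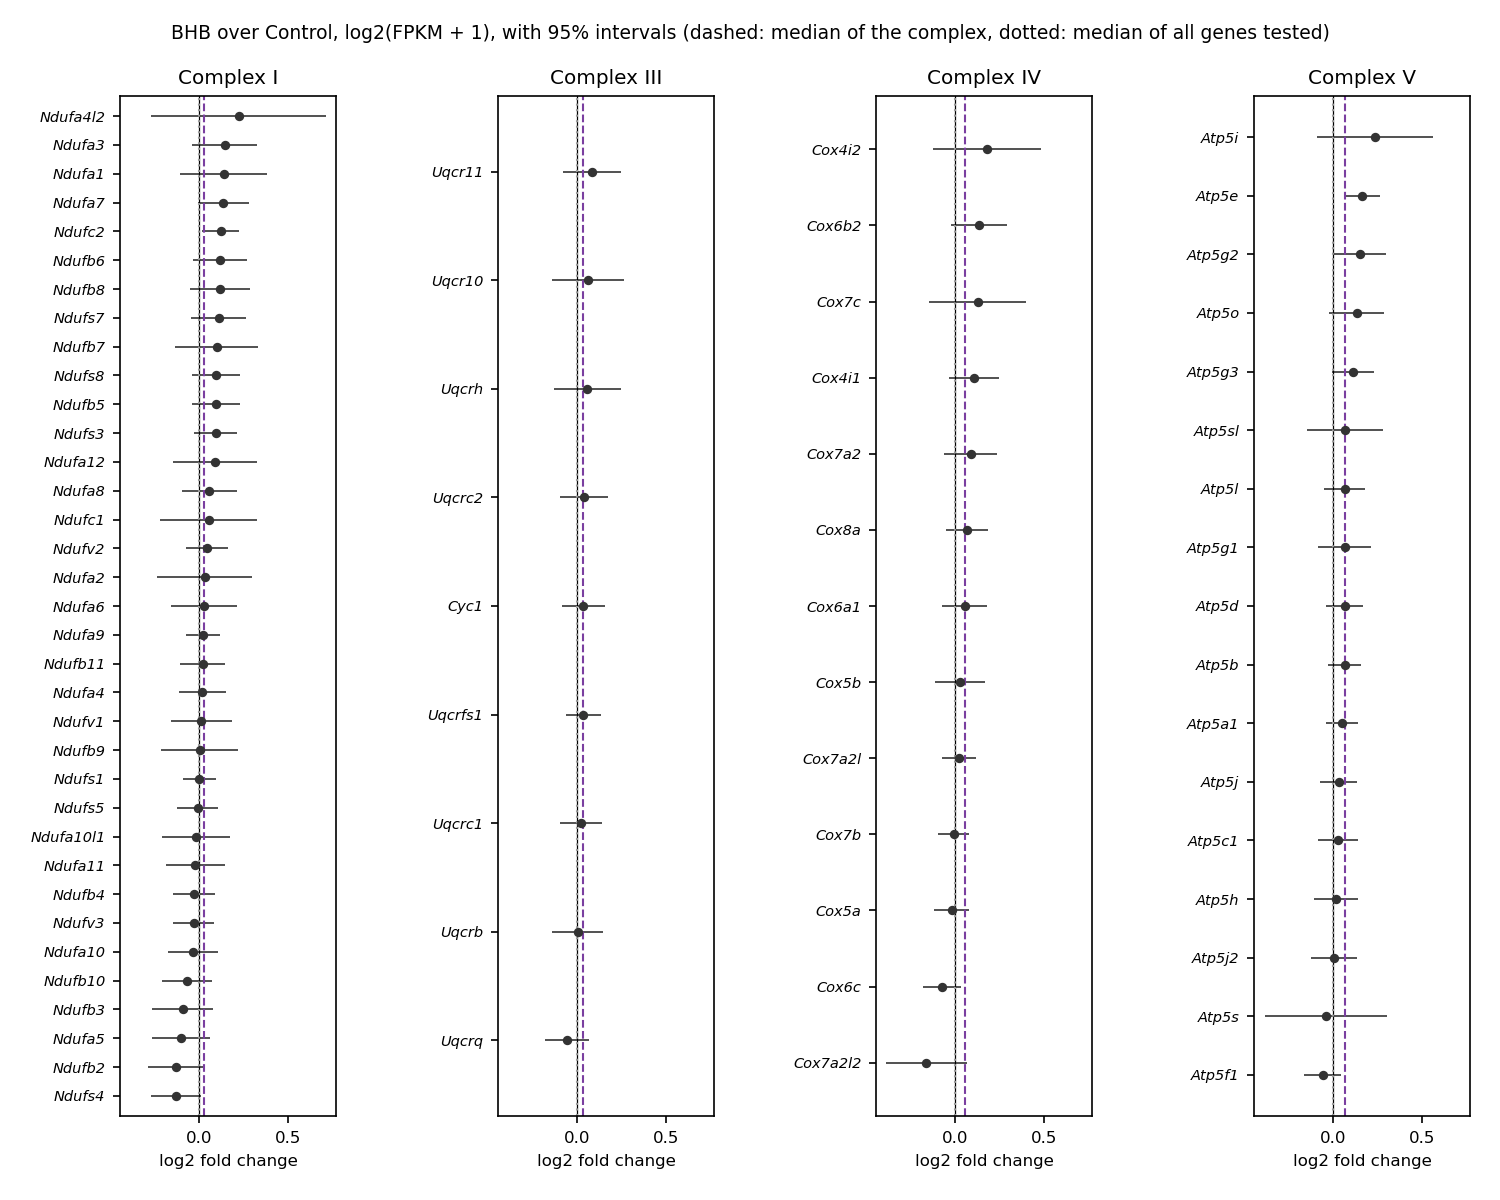
Log2 fold change, BHB over Control, of each plotted gene with its 95% interval from limma, by complex. The dashed line is the median of all genes of the complex (0.03 for I, 0.04 for III, 0.06 for IV, 0.07 for V) and the dotted line the median of all genes tested; most intervals cross 0.

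Complex V held 2 of the 3 genes under an unadjusted p of 0.05, Atp5e and Atp5g2. Atp5e, the small epsilon subunit of the central stalk, had 129.3, 131.3 and 126.4 FPKM in the BHB libraries and 113.9, 119.4 and 111.5 FPKM in the Control libraries. Every BHB library lay above every Control library. On the log2 scale BHB was higher by 0.17 (SE 0.0424, interval 0.07 to 0.26), with an unadjusted p of 0.00425 and an adjusted p of 0.881 in limma. Atp5g2, of subunit c, had 232.1, 245.1 and 212.1 FPKM with BHB and 207.2, 217.6 and 195.0 FPKM in Control. BHB 3 fell inside the Control range, and limma gave 0.15 (SE 0.0631) on the log2 scale, with an unadjusted p of 0.0423 and an adjusted p of 0.881.

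The other subunit c genes had smaller differences. Atp5g3 averaged 138.8 ± 4.35 FPKM with BHB and 128.4 ± 7.33 FPKM in Control (SD, n = 3 each). Its log2 fold change was 0.11, and that of Atp5g1 0.07. Atp5a1, named after its values were seen to be apart, had 278.1, 293.8 and 276.9 FPKM with BHB and 273.7, 275.7 and 269.3 FPKM in Control. The groups did not overlap, though BHB 3 and Control 2 were close. Atp5i, which encodes the membrane subunit e and was also picked after its values were seen, had the highest log2 fold change of the 75 genes with a pseudocount of 1, 0.24, with wide scatter. With a pseudocount of 0.5 Ndufa4l2 was higher, at 0.29, and with 0.1 at 0.39. Atp5i stood at 92.7, 90.3 and 71.1 FPKM with BHB and at 57.3, 80.7 and 78.0 FPKM in Control, so BHB 3 fell between the Control values (limma adjusted p = 0.890). Below 0 were Atp5f1, the stator subunit b, at -0.06, and Atp5s at -0.04. Atp5s was at 0.12 without BHB 3 and at 0.02 without Control 3.

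In complex I the gene with the smallest p was Ndufc2, an accessory subunit of the membrane arm. It had 96.6, 92.5 and 88.3 FPKM with BHB and 84.2, 84.4 and 85.7 FPKM in Control. All BHB libraries were higher, by a log2 fold change of 0.12 (SE 0.0450, unadjusted p = 0.0249, adjusted p = 0.881 in limma). Ndufs3, a core subunit of the matrix arm named for its separation, had 42.3, 44.9 and 41.7 FPKM with BHB and 41.6, 40.7 and 38.2 FPKM in Control, groups that were only just apart. Ndufa7, an accessory subunit, averaged 54.2 ± 3.15 FPKM with BHB and 49.2 ± 3.08 FPKM in Control (SD, n = 3 each), which limma put at 0.14 on the log2 scale with an adjusted p of 0.881.

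Not all of complex I pointed the same way. Ndufs4, an accessory subunit whose loss causes Leigh-like disease in mice, had 40.3, 38.1 and 35.6 FPKM with BHB and 43.2, 42.5 and 39.2 FPKM in Control. Its log2 fold change was -0.13 (SE 0.0609, adjusted p = 0.881 in limma), and BHB 1 lay above Control 3. Core redox subunits had log2 fold changes of 0.01 for Ndufv1, 0.04 for Ndufv2, 0.00 for Ndufs1, 0.11 for Ndufs7 and 0.10 for Ndufs8. Ndufb4, the most abundant, had -0.03, with the Control libraries at 134.7 to 153.4 FPKM on both sides of the BHB libraries at 139.3 to 140.3 FPKM.

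Complexes III and IV showed no gene under an unadjusted p of 0.05. In complex III, Uqcr11 had the smallest p, at 53.2, 55.4 and 46.4 FPKM with BHB and 48.0, 51.3 and 46.6 FPKM in Control, a difference of 0.08 on the log2 scale (adjusted p = 0.910 in limma). Uqcrq was below 0, at -0.05. Uqcrb, at 0.01, turned below 0 with equal FPKM sums, quantile normalization, equal medians or array weights, and without BHB 1, BHB 2, Control 1 or Control 2. Uqcrfs1 stood at 0.04. In complex IV, Cox6b2 had the smallest p, at 0.14 on the log2 scale (adjusted p = 0.887 in limma). Cox4i1 had 188.1, 192.3 and 187.7 FPKM with BHB and 165.7, 194.0 and 169.3 FPKM in Control: Control 2 was the highest of all and the other Control libraries were lower (log2 fold change 0.11, limma adjusted p = 0.890). Cox4i2 had 3.38, 4.37 and 3.01 FPKM with BHB and 3.57, 2.51 and 3.04 FPKM in Control, with overlapping groups, a log2 fold change of 0.18 and an adjusted p of 0.898 in limma. Without BHB 2 it was 0.06 and without Control 2 0.08, and without BHB 3 or Control 1 it was 0.27. Cox7a2l, whose product helps to join complexes into supercomplexes, stood at 0.03 and its relative Cox7a2l2 at -0.16.

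Genes of all complexes varied together from library to library, and this variation was as large as the difference between groups. The median deviation of the 75 genes from their own means was 0.03 in BHB 1, 0.06 in BHB 2 and -0.03 in BHB 3, against -0.04 in Control 1, 0.04 in Control 2 and -0.05 in Control 3, on the log2 scale. BHB 1, BHB 2 and Control 2 were the high libraries, and BHB 3, Control 1 and Control 3 the low ones, so the groups overlap. BHB 1 was the highest of the 6 libraries in 20 of the 75 genes, BHB 2 in 21 and BHB 3 in 3, and Control 1 was the highest in 5, Control 2 in 24 and Control 3 in 2. Over all genes tested the median deviations ran only from -0.01 to 0.01. A list of 89 genes with Rpl or Rps symbols was added after the values were seen. It stands for cytosolic ribosomal proteins, though this symbol pattern can also take other genes, such as those of S6 kinases. Its median deviations were 0.03, 0.05 and -0.01 in the BHB libraries and -0.03, 0.04 and -0.07 in the Control libraries. The same 3 libraries were high, and the part of this shared variation in the direction of the respiratory chain genes was not tested.

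**Figure D4:**
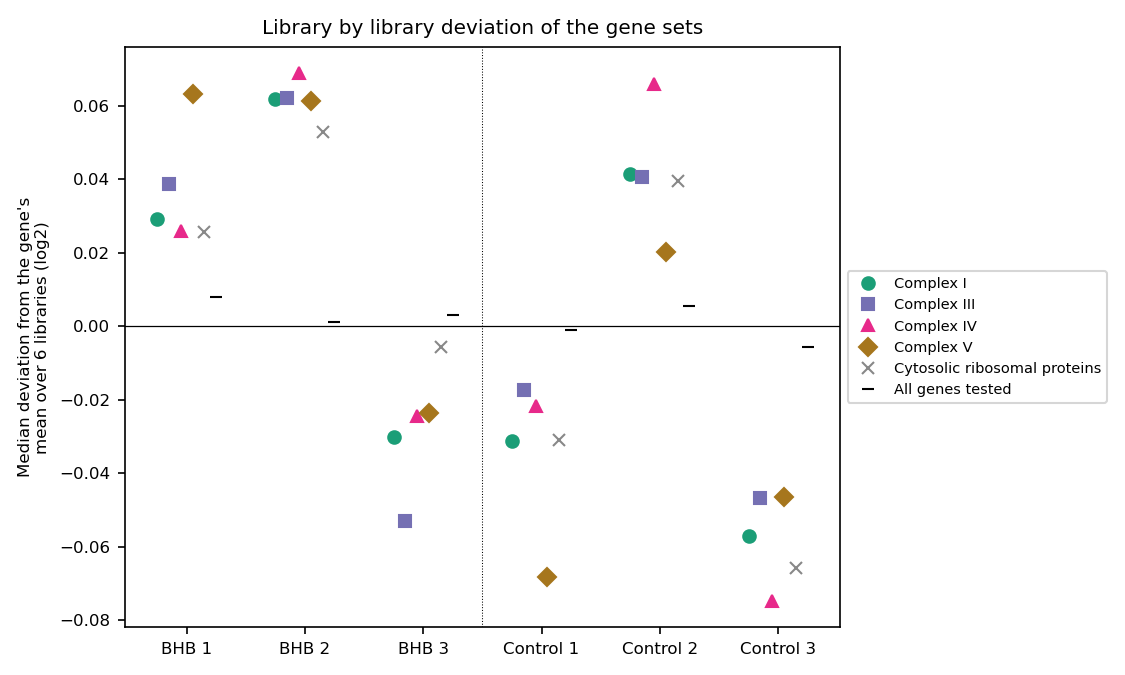
Median deviation of each gene set from the genes' own means over the 6 libraries (log2 scale), with BHB libraries to the left of Control libraries. All 4 complexes and the genes with Rpl or Rps symbols (labelled cytosolic ribosomal proteins) lie above 0 in BHB 1, BHB 2 and Control 2. The same sets lie below 0 in BHB 3, Control 1 and Control 3, while all genes tested stay within 0.01 of 0.

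Summed over a complex, the groups overlapped as well. The 17 complex V genes summed to 2414, 2428 and 2297 FPKM with BHB and 2207, 2367 and 2212 FPKM in Control, a ratio of means of 1.05. Complex I summed to 1998, 2004 and 1907 FPKM with BHB and to 1902, 2031 and 1867 FPKM in Control, a ratio of 1.02. The ratio was 1.03 for complex III and 1.02 for complex IV. Single genes were steady between libraries: in 71 of the 75 the highest library was less than 1.5-fold above the lowest, and the exceptions were Ndufa4l2, Cox4i2, Atp5s and Atp5i.

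Genes around the chain did not pass either. Of the complex II genes, which encode succinate dehydrogenase, 1 of 4 was above 0 and 0 passed, with 0 at an unadjusted p under 0.05 in limma. Sdha, the flavoprotein, stood at 88.5 ± 1.02 FPKM with BHB and 84.9 ± 0.635 FPKM in Control, and Sdhb, the most abundant, at 98.3 ± 3.88 and 99.0 ± 5.74 FPKM (SD, n = 3 each). Sdhc, a membrane anchor, stood apart in 1 library, at 38.7, 46.6 and 38.2 FPKM with BHB and 34.4, 135.3 and 41.1 FPKM in Control. Among 10 further subunits and carriers 5 were above 0 and 0 passed, with 0 under an unadjusted p of 0.05. Usmg5, an ATP synthase membrane subunit now named Atp5mk, was the most abundant, at 131.6 ± 13.1 FPKM with BHB and 124.2 ± 4.20 FPKM in Control (SD, n = 3 each). Atpif1, the inhibitor of the ATP synthase, averaged 98.5 FPKM with BHB and 93.0 FPKM in Control. Gpd2, of the glycerol phosphate shuttle, had 3.98, 8.55 and 4.37 FPKM with BHB and 3.93, 10.8 and 9.50 FPKM in Control. Its libraries split into a low and a high level that did not follow treatment.

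Assembly factors, which build the complexes without staying in them, were split evenly, with 21 of the 42 tested above 0 and 0 passing. Of these 4 had an unadjusted p under 0.05, all higher, against 3.45% of all genes tested. Ndufaf5, a complex I assembly methyltransferase relative that hydroxylates Ndufs7, averaged 10.4 ± 0.413 FPKM with BHB and 8.42 ± 1.08 FPKM in Control, a log2 fold change of 0.28, and Uqcc1, of complex III, 16.7 ± 1.11 and 14.5 ± 1.27 FPKM, a log2 fold change of 0.19 (SD, n = 3 each; adjusted p = 0.881 for each in limma). The others, named after their values were seen, were Ndufaf2 (0.54) and Uqcc2 (0.26). Ndufaf2 had 4.92, 6.66 and 7.67 FPKM with BHB and 4.45, 5.61 and 2.56 FPKM in Control, with overlapping groups. Coa5 was the most abundant, at 36.5 FPKM with BHB and 37.7 FPKM in Control.

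Regulators of these genes were at modest levels. Of 11 tested, 7 were above 0 and 0 passed, with 0 at an unadjusted p under 0.05 in limma. Yy1, whose motif was counted above, was the most abundant at 30.9 ± 1.47 FPKM with BHB and 30.9 ± 2.16 FPKM in Control, and Nrf1 stood at 5.52 ± 0.208 and 5.66 ± 0.924 FPKM (SD, n = 3 each). The smallest p values were those of Tfb1m, a methyltransferase of mitochondrial ribosomal RNA, and Polrmt, the mitochondrial RNA polymerase, with log2 fold changes of 0.11 and 0.08. Ppargc1a, the coactivator PGC-1α, was below the minimum and not tested, at 0.891, 1.12 and 1.07 FPKM with BHB and 0.844, 0.739 and 0.968 FPKM in Control. The 13 subunits encoded in the mitochondrial genome were looked for by symbol, none was found, and they are not analysed here.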

How the data were processed

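The authors deposited 1 table of FPKM values for 6 poly(A) RNA libraries, 3 BHB and 3 Control, grouped by title. The submitters' processing notes name bcl2fastq 2.0, HISAT2, StringTie and DESeq2 as tools and rn6 as the build, without roles or settings. No source used here gives the annotation, strand setting or counting of shared reads. FPKM is not a count, so no count model was used, and depth is unknown. The log2(FPKM + 1) of each unscaled value entered the fit. Every gene that reached 1 FPKM in 3 or more libraries was tested with limma 3.58.1 (R 4.3.3, eBayes with trend, two-sided), with p-values adjusted over all of them at a threshold of 0.05. The fit was tested on simulated data. Sets are described by counts and medians, since members and lists were chosen with earlier results of these data known.

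A gene of complex I that enters all counts is not reported here by name or plotted. Genes were named by rule: per complex the most and least abundant, the 3 with the smallest p, isoform and core subunit genes, and those nearest the minimum; others are said to be picked after their values were seen. All 75 symbols matched RefSeq (GRCr8, names and promoters only), 17 under a newer symbol. Alternatives changed the pseudocount, filter, scaling, weights, trend, block and libraries. Of the 75 genes 22 have values with more than 6 decimals, which in this table may combine several transcripts.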

Additional observations from a re-analysis of the deposited data

How the results depend on the processing

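No gene of the 75 passed in any of the alternatives run, where the lowest adjusted p of the set was 0.611 (Atp5o, without Control 2). The number of the 75 with an unadjusted p under 0.05 ran from 1 without the eBayes trend to 10 without Control 2; it was 9 without BHB 3. Over all genes 7 passed, 4 without the eBayes trend (the cause was not tested) and 2 with the replicate block, which leaves fewer residual degrees of freedom; leaving out a library gave 5 to 10. Deviations from the group means correlated at r = -0.09, 0.16 and -0.15 for the 3 pairs of libraries of equal number. BHB 2 correlated best with its own number, BHB 1 with Control 3 (0.20) and BHB 3 with Control 1 (0.19). Deviations within a group of 3 sum to 0, which ties these values together. They cannot decide whether libraries were paired, by number or in another order. Of the 75 genes 57 were above 0 as reported, 52 with equal FPKM sums, 53 with equal medians, 54 with quantile normalization, 52 with array weights and 48 to 62 when a library was left out. Equal sums left 44.0% of all genes above 0, with medians of 0.03 for the 75 genes, 0.01 for complex I, 0.02 for III, 0.04 for IV and 0.05 for V. The median ran from 0.02 to 0.07 without a library; that of complex IV was 0.01 without Control 3, and those of complexes I and III were 0.01 without Control 1; that of complex V was 0.04 without BHB 2. With Ndufa4 counted in complex IV and without Atp5s and Atp5sl, chosen after seeing the data, the complex IV median was 0.04; among the 53 genes with at most 6 decimals, also chosen then, 40 were above 0. Uqcrb, at 0.0051 in the main setting, turned to -0.0110 with equal sums, -0.0027 with quantile normalization, -0.0017 with equal medians and -0.0039 with array weights. Leaving out a library moved it from -0.0326 to 0.0520, Atp5s from -0.179 to 0.118, Ndufb4 from -0.0682 to 0.0249 and Uqcrh from -0.0304 to 0.109. The other 288 values of 20 named genes under the alternatives kept their direction and side of the threshold. Unknown depth and 3 libraries a group limit the precision of every value.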
